A study of Mus musculus with 6 samples.

Results

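The genes described are 9 of the 49315 in the deposited count table: the subunits of the hypoxia-inducible factors (HIF) and the proteins that sense oxygen for them. They were chosen by gene symbol. Hif1a, Epas1 and Hif3a encode alpha subunits, and Arnt the beta subunit. Egln1, Egln2 and Egln3 encode prolyl hydroxylases, Hif1an an asparaginyl hydroxylase, and Vhl the receptor of a ubiquitin ligase. All 9 are protein-coding genes, and 8 passed the filter on low counts. Hif3a did not.

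HIF is a transcription factor made of an alpha and a beta subunit. In oxygenated cells the prolyl hydroxylases modify the alpha subunit, and the von Hippel-Lindau protein then binds it and marks it for degradation. The asparaginyl hydroxylase blocks the contact of the alpha subunit with its co-activators CBP and p300. These hydroxylases are dioxygenases that use oxygen, iron and 2-oxoglutarate, as is TET2. When oxygen falls, the alpha subunit is kept and genes of glycolysis, vessel growth and mitochondrial turnover are transcribed. Much of this control acts on the protein, which was not measured here.

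Messenger RNA was sequenced from mid-ventricular heart tissue of adult mice. The group labelled TET2KO carried a knockout of Tet2 directed to endothelial cells, and the group labelled WT was wild type, with 3 biological replicates each. Both groups had received Angiotensin II, a vasoconstrictor peptide, at 1 mg/kg/day from osmotic minipumps for 28 days. The Cre driver, the deleted exons, the strain and the exact age were not stated in the sources at hand. The 6 libraries carry the same batch label.

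Library totals ran from 22124844 to 30418909 reads. Levels are given as CPM, counts scaled to a common library size with TMM factors, and as the authors' TPM, which also divides by gene length. Log2 fold changes are of TET2KO over WT ± SE, tested with edgeR and adjusted over all 14370 genes tested. Of these, 62.9% passed at 0.05, so a passing gene is not unusual in this comparison. Fold changes rose with transcript length. The median was -1.29 in the tenth of genes with the shortest transcripts and 1.38 in the tenth with the longest (Spearman's rho 0.61 across 14341 genes, a description). A second value, called trend-removed below, takes out a smooth trend on transcript length and GC content in each library, and 46.2% of genes passed with it. Such a fit also removes true differences where they run along length or GC content.

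Tet2, the targeted gene, was examined before the members. It stood at 14.6, 8.01 and 10.4 CPM in the libraries labelled TET2KO, against 4.27, 4.33 and 3.08 CPM in the libraries labelled WT. It was 2.82-fold higher under the knockout label, against that label (log2 1.49 ± 0.29, edgeR adjusted p = 0.0065, trend-removed 0.27 ± 0.17, adjusted p = 0.21). Gene-level counts of whole tissue cannot check a deletion in endothelial cells alone whose exons were not stated. The labels were thus not verified from these counts, and directions below follow them. The cause of the higher Tet2 counts was not tested. The tissue label was checked with 10 cardiomyocyte markers, which summed to 44973 to 51806 CPM in the libraries labelled TET2KO and 73949 to 93494 CPM in those labelled WT. The markers did not move together. As counted 4 were higher and 5 lower under the TET2KO label, beside 33.4% and 29.4% of all genes. With the trend removed 5 were higher and 3 lower, beside 21.9% and 24.3%.

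Of the 8 members tested, 5 were higher, 1 was lower and 2 did not pass the test in the libraries labelled TET2KO. The 75% that passed stands beside 62.9% of all genes, and the 5 higher and 1 lower beside 33.4% and 29.4%. The median log2 fold change of the 8 was 0.73, against 0.046 for all genes. The groups did not overlap in 6 of the 8 members and in 73.5% of all genes. In the trend-removed fit 3 members were higher and 2 lower, beside 21.9% and 24.3% of all genes, 46.2% in all. The median of the 8 was then 0.15 against -0.030 for all genes. The count of 5 became 3 without any 1 of the WT libraries and 4, 7 and 2 without TET2KO replicates 1, 2 and 3. The count over all genes moved likewise, from 6629 to 4206, 4883 and 4245 without WT replicates 1, 2 and 3. It was 4868, 8653 and 4027 without TET2KO replicates 1, 2 and 3. Scaling by library totals in place of TMM moved the median of all genes to 0.47. By that scaling 6 members were higher and 1 lower, beside 45.5% and 15.8% of all 14370 genes, 61.3% in all. Hif1an, higher, and Vhl, lower, passed in both fits in the same direction, as did Hif1a and Arnt, both higher. In all 6 members that passed as counted, replicate 2 was the TET2KO library nearest to the WT mean. The same was true of 94.9% of all 9037 genes that passed.

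**Figure D1:**
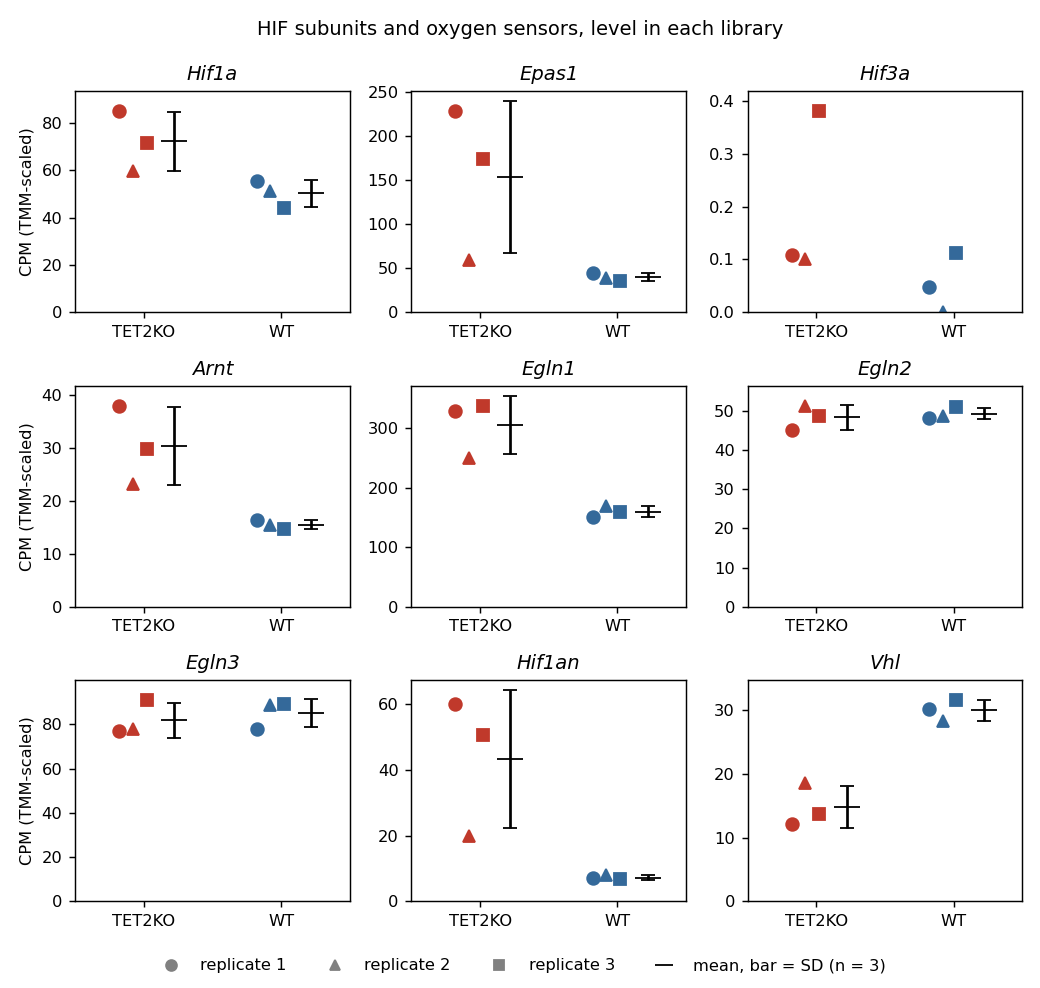
CPM of the 9 genes in each library, with TET2KO left of WT in every panel and a symbol for each replicate number. Bars are the mean and SD of 3 libraries, left out for Hif3a. Hif1an and Epas1 have the highest ratios of TET2KO over WT (5.97 and 3.89), and replicate 2 of TET2KO lies nearest to WT in both.

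HIF binds DNA at a short hypoxia response element. The promoters shown are those of Egln1 and Egln3, which are themselves known HIF targets, and of Hif1an and Vhl, which passed the test in one direction under nearly every alternative. The sequences are the 250 bases before the RefSeq start of each gene (GRCm38.p6), 5′ to 3′ on the strand of the gene. Egln1 is at chr8:124949255-124949504, minus strand, and Egln3 at chr12:54203875-54204124, minus strand. Hif1an is at chr19:44562604-44562853, plus strand, and Vhl at chr6:113623744-113623993, plus strand. Capitals mark the core of the element, ACGTG or GCGTG on either strand.
Egln1: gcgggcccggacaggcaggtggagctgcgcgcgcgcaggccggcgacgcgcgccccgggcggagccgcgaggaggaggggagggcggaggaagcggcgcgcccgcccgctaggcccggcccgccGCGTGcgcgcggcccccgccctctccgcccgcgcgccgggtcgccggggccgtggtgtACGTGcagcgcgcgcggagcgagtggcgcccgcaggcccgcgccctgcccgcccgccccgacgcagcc
Egln3: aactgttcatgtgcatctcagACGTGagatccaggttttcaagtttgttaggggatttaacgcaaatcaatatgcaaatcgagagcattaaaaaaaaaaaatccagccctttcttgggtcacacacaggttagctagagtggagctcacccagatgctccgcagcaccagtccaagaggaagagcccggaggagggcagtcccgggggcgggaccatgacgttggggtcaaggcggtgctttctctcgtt
Hif1an: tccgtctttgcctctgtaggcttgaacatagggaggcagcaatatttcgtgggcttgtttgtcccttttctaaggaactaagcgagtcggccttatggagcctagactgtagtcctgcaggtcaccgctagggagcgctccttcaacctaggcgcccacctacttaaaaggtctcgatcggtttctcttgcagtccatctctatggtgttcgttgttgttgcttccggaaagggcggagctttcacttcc
Vhl: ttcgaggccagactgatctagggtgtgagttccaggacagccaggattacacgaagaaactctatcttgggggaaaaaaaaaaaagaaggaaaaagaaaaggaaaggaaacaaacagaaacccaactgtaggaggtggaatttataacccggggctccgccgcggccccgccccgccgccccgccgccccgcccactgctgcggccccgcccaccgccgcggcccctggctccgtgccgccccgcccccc
Egln1 held 2 cores, starting at -126 and -68 from the RefSeq start, and Egln3 held 1, at -229. The windows of Egln1, Hif1an and Vhl reach into the gene spans given below, which are from the GENCODE annotation. The Egln1 core at -68 lies inside that span. Hif1an and Vhl held 0 in these windows. Such a core was present in 38.6% of all 32851 promoter windows of this length, so a match is common, and its absence says only that these letters are not in this window. A match on one strand can overlap one on the other, as in CACGTG, and each was counted. Windows were found for 8 of the 9 members, with Epas1 not among them. They numbered 9, with more than 1 for Egln2. Of the 9, 7 held a core, all but those of Hif1an and Vhl, beside 38.6% of all windows. Either core contains a CpG, and that share was not matched for CpG content. CpG dinucleotides are the substrate of TET enzymes when methylated. They numbered 51 in the window of Egln1, 20 in that of Vhl, 12 in that of Hif1an and 10 in that of Egln3. The other member windows held 12 (Arnt), 14 (Hif1a), 9 (Hif3a), and 20 and 4 (Egln2). The median was 6 over all windows.

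Hif1an encodes the asparaginyl hydroxylase FIH, which keeps the alpha subunit from its co-activators (ENSMUSG00000036450, GRCm38 chromosome 19, 44562850 to 44576274, plus strand). It held 59.9, 19.8 and 50.5 CPM in the libraries labelled TET2KO, against 7.10, 8.01 and 6.66 CPM in the libraries labelled WT. The lowest TET2KO library thus stood above the highest WT library. Reads summed to 4407 over the 3 libraries labelled TET2KO and 463 over the 3 labelled WT. The fold of 5.97 was the highest in the family (log2 2.58 ± 0.39, edgeR adjusted p = 0.0065). The trend-removed fold was 2.04 (log2 1.03 ± 0.15, adjusted p = 0.0040). Hif1an passed in the same direction under all 24 alternatives tried, with log2 fold changes of 0.95 to 3.02. Its longest transcript has 6194 nt, and the fitted trend at this length and GC content was 1.42 on the log2 scale.

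Vhl encodes the protein that recognises hydroxylated alpha subunits for ubiquitin ligation (ENSMUSG00000033933, GRCm38 chromosome 6, 113623959 to 113631633, plus strand). It held 12.2, 18.6 and 13.7 CPM in the libraries labelled TET2KO and 30.3, 28.3 and 31.6 CPM in the libraries labelled WT. The groups did not overlap, and it was the 1 member that fell. The level under the WT label was 2.03-fold the level under the TET2KO label (log2 -1.02 ± 0.19, edgeR adjusted p = 0.0065). The fitted trend for its transcript of 2792 nt was close to 0 (0.022), and the trend-removed value was -1.04 ± 0.17 (adjusted p = 0.0040). Scaling by library totals gave -0.59, below the median of all genes by that scaling. Vhl passed as lower in 23 of 24 alternatives, the exception being log2(TPM + 1), with -0.38 and an adjusted p of 0.052. On the TPM scale it stood at 11.0, 13.8 and 11.0 in the libraries labelled TET2KO, against 15.7, 16.2 and 15.3 in the libraries labelled WT, also without overlap.

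**Figure D2:**
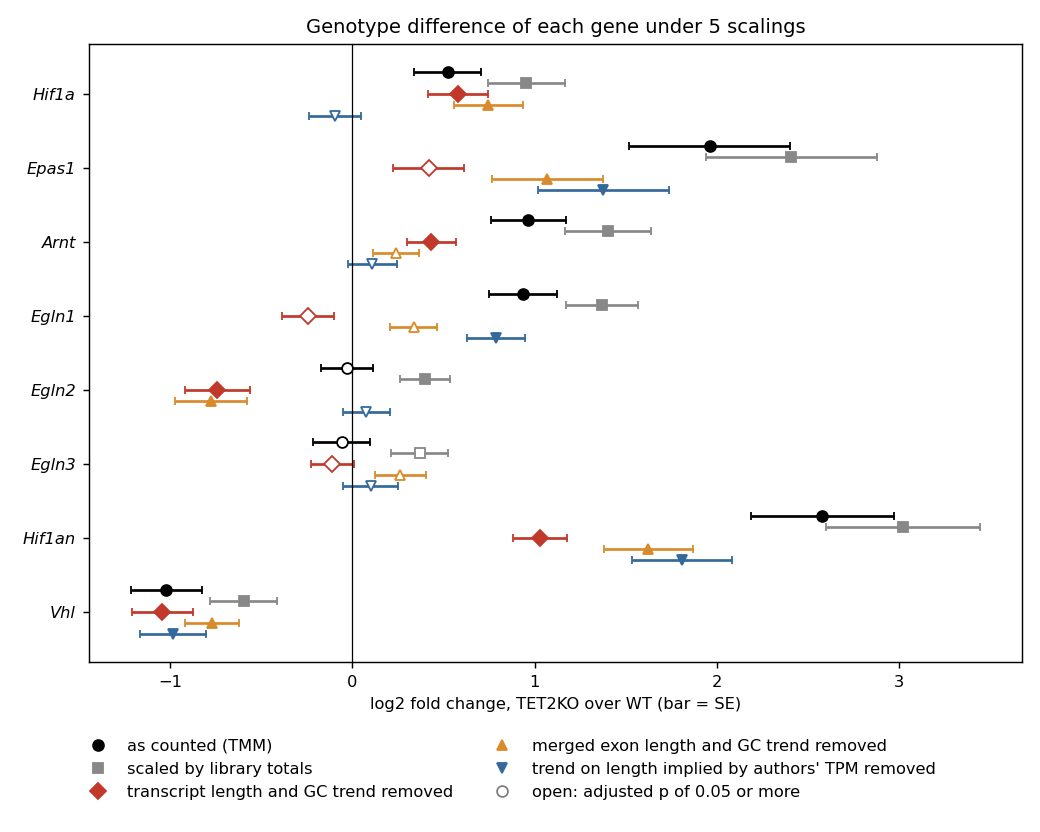
Log2 fold change of TET2KO over WT with its SE for the 8 tested genes under 5 scalings, with filled symbols where the adjusted p is under 0.05. Hif1an lies right of 0 and Vhl left of 0 under each of the 5, and both are filled throughout. Egln3 is open under each, and the other 5 lose or gain a call with the scaling, with Hif1a, Egln1 and Egln2 on either side of 0.

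Epas1 encodes the alpha subunit that is prominent in endothelial cells (ENSMUSG00000024140, GRCm38 chromosome 17, 86753700 to 86833410, plus strand). It held 228, 59.0 and 173 CPM in the libraries labelled TET2KO, against 44.4, 38.5 and 35.4 CPM in the libraries labelled WT. Replicate 2 of TET2KO was far below the other two yet above every WT library. Epas1 rose 3.89-fold (log2 1.96 ± 0.44, edgeR adjusted p = 0.0081). Its trend-removed value was 0.42 ± 0.20 and did not pass (adjusted p = 0.11). Without TET2KO replicate 2 the trend-removed value was 0.64, past the test. A trend on merged exon length and GC left 1.07 (adjusted p = 0.020), and one on the length implied by the authors' TPM left 1.38 (adjusted p = 0.015).

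Of 12 endothelial markers, 8 were higher, 3 lower and 1 did not pass in the libraries labelled TET2KO, beside 33.4% higher and 29.4% lower of all genes. Their summed level was 605 to 1006 CPM under the TET2KO label and 562 to 609 CPM under the WT label, and none was at 0 in either group. The trend-removed counts were 6 higher and 2 lower, beside 21.9% and 24.3% of all genes. In bulk tissue a change in the number of cells of a type and in the RNA of each cell cannot be told apart. The part of endothelial content in the value of Epas1 was not tested.

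Hif1a encodes the alpha subunit found in most cells (ENSMUSG00000021109, GRCm38 chromosome 12, 73901375 to 73947530, plus strand). It held 85.2, 60.0 and 71.7 CPM in the libraries labelled TET2KO, against 55.4, 51.5 and 44.1 CPM in the libraries labelled WT. The groups did not overlap, by a margin of replicate 2 of TET2KO over replicate 1 of WT. The rise of 1.44-fold passed the test (log2 0.52 ± 0.18, edgeR adjusted p = 0.038), as did the trend-removed value of 0.58 ± 0.16 (adjusted p = 0.020). The call as counted was lost on leaving out any 1 library other than TET2KO replicate 2 (log2 0.42 to 0.59, adjusted p = 0.074 to 0.15). The trend-removed call was lost without any 1 of the WT libraries or without TET2KO replicate 3 (0.51 to 0.61). The sign turned with a trend on length alone, to -0.24 for the longest transcript and -0.094 for the implied length, where neither passed. The GC content of its transcript is 41.3%, the lowest in the family.

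An antisense gene, Gm15283, overlaps Hif1a and held 15, 53 and 25 reads in the libraries labelled TET2KO, against 81, 58 and 52 reads in the libraries labelled WT. The strand setting of the counting was not stated in the sources at hand, so reads of the pair cannot be told apart. These reads compare with 7215 and 3201 for Hif1a under the TET2KO and WT labels.

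Hif3a, whose products include forms that restrain the other alpha subunits, was near the limit of detection (ENSMUSG00000004328, GRCm38 chromosome 7, 17031507 to 17062427, minus strand). It had 4, 3 and 12 reads in the libraries labelled TET2KO, against 1, 0 and 2 reads in the libraries labelled WT. At this depth no fold is given. Without a filter on low counts its adjusted p in edgeR was 0.21.

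Arnt encodes the beta subunit, the shared partner of every alpha subunit (ENSMUSG00000015522, GRCm38 chromosome 3, 95434388 to 95497240, plus strand). It held 37.9, 23.2 and 29.7 CPM in the libraries labelled TET2KO, against 16.4, 15.5 and 14.7 CPM in the libraries labelled WT. The WT libraries were close together and all lay below the TET2KO libraries. Arnt rose 1.95-fold (log2 0.96 ± 0.21, edgeR adjusted p = 0.0070). The trend-removed value of 0.43 ± 0.14 passed (adjusted p = 0.028), but on leaving out 1 library it passed only without TET2KO replicate 2, at 0.51. In the 5 other such fits it was 0.32 to 0.46 and did not pass. Neither did it pass with merged exon length and GC (0.24) or with the implied length (0.11). Arnt has 11 annotated transcripts, and its merged exons span 8007 nt against 4325 nt for the longest transcript.

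Egln1 encodes the prolyl hydroxylase that sets the basal level of the alpha subunit in most tissues (ENSMUSG00000031987, GRCm38 chromosome 8, 124908587 to 124949324, minus strand). It held 329, 249 and 337 CPM in the libraries labelled TET2KO, against 151, 169 and 158 CPM in the libraries labelled WT. The groups were well apart. Egln1 rose 1.92-fold as counted (log2 0.94 ± 0.19, edgeR adjusted p = 0.0065). The trend-removed value turned to -0.24 ± 0.14 and did not pass (adjusted p = 0.19). Without TET2KO replicate 2 that value was -0.39 and passed as lower. The fitted trend at its length of 3594 nt and GC content of 56.0% was 1.18. A trend on length alone left it higher, at 0.50 for the longest transcript and 0.79 for the implied length, both past the test.

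Egln2, a prolyl hydroxylase found mostly in the nucleus, stood level as counted (ENSMUSG00000058709, GRCm38 chromosome 7, 27158658 to 27166802, minus strand). It held 45.1, 51.3 and 48.8 CPM in the libraries labelled TET2KO, against 48.2, 48.7 and 51.0 CPM in the libraries labelled WT. The ranges overlapped (log2 -0.028 ± 0.14, edgeR adjusted p = 0.87). The trend-removed fit put it lower, at -0.74 ± 0.18 (adjusted p = 0.011), and on leaving out TET2KO replicate 3 that call was lost (-0.67, adjusted p = 0.051). Scaling by library totals gave 0.40, past the test as higher though under the median of 0.47 for all genes. Its GC content of 62.2% is the highest in the family.

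Egln3, the prolyl hydroxylase known to be strongly induced by HIF, differed by less than the spread between replicates (ENSMUSG00000035105, GRCm38 chromosome 12, 54178981 to 54203860, minus strand). It held 76.8, 78.0 and 90.9 CPM in the libraries labelled TET2KO, against 77.8, 88.6 and 89.3 CPM in the libraries labelled WT. The groups overlapped almost fully (log2 -0.058 ± 0.16, edgeR adjusted p = 0.76). The trend-removed value was -0.11 ± 0.12 and did not pass. The exception among the alternatives was log2(TPM + 1), where it passed as higher at 0.57, beside a median over all genes of 0.41 on that scale.

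**Figure D3:**
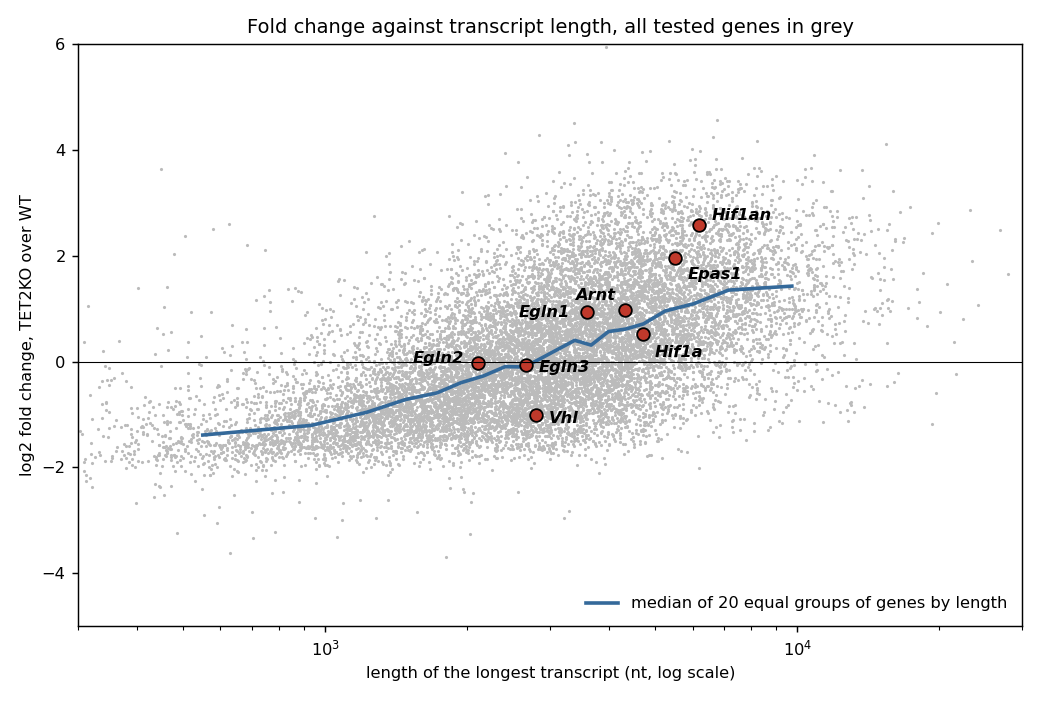
Log2 fold change of TET2KO over WT against the length of the longest transcript on a log scale, with all tested genes in grey, the 8 tested members in red and the median of 20 groups of genes by length in blue (genes beyond the ends of the axes are not drawn). Hif1an and Epas1 lie above the median at their length, and Vhl lies below it.

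In the authors' deposited table the same 6 members passed at 0.05, 5 higher and 1 lower, beside 65.0% of its genes, 33.6% higher and 31.4% lower. Log2 fold changes of the members in the authors' deposited table ran from -1.07 for Vhl to 2.52 for Hif1an, with 0.47 for Hif1a at an adjusted p of 0.043.

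Levels of different genes were compared per length, as TPM. Division by length leaves the trend of fold change with length in place, so a change of order between the groups carries it. The fitted trend on length and GC was 1.38 (log2) for Epas1, 1.42 for Hif1an and 0.022 for Vhl. In the libraries labelled TET2KO, Egln1 was highest at 209.8 ± 48.6 TPM (SD, n = 3), above Egln3 at 75.3 ± 8.88 and Epas1 at 73.4 ± 46.0 TPM. There followed Egln2 at 42.2 ± 1.29, Hif1a at 30.4 ± 8.22, Hif1an at 16.6 ± 9.07, Vhl at 12.0 ± 1.62 and Arnt at 9.42 ± 3.19 TPM. Neighbours in this order whose libraries did not overlap were Egln1 and Egln3, Egln2 and Hif1a, and Arnt and Hif3a. In the libraries labelled WT, Egln1 was again highest at 70.0 ± 9.33 TPM, above Egln3 at 50.5 ± 6.08 and Egln2 at 27.7 ± 1.89 TPM. There Vhl at 15.8 ± 0.438 stood above Hif1a at 13.5 ± 2.26 and Epas1 at 11.7 ± 1.76 TPM. Arnt at 3.06 ± 0.342 and Hif1an at 1.74 ± 0.314 TPM came last before Hif3a. The only neighbours in this WT order whose libraries overlapped were Hif1a and Epas1. Hif3a was under 0.14 TPM in each library.

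The makeup of each enzyme or subunit class was compared as shares of summed TPM within a library. Trend-removed shares are of summed CPM, which is not divided by gene length. Of Hif1a plus Epas1, Epas1 took 74.8, 52.2 and 72.9% in the libraries labelled TET2KO, against 47.1, 45.4 and 47.1% in the libraries labelled WT. The means of 66.6 ± 12.5% and 46.5 ± 0.995% differed by 20.1 percentage points (SD, n = 3 each, two-sided exact permutation p = 0.1, the smallest that 3 against 3 allows). In CPM as counted the difference was 20.4 points (exact permutation p = 0.1). The trend-removed difference, also in CPM, was -3.04 points, in the opposite direction (exact permutation p = 0.2).

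Of the 3 prolyl hydroxylases, Egln3 took 21.1, 25.0 and 23.5% in the libraries labelled TET2KO, against 33.1, 34.1 and 35.0% in the libraries labelled WT. The difference was -10.8 points (exact permutation p = 0.1), and with the trend removed 3.12 points (exact permutation p = 0.4). Egln1 made up 63.6 ± 3.97% under the TET2KO label and 47.2 ± 1.08% under the WT label (SD, n = 3 each, exact permutation p = 0.1), and its trend-removed difference was 1.45 points (exact permutation p = 0.3). The share of Egln2 was lower by either scale, with a difference of -5.62 points in TPM and -4.57 points with the trend removed (exact permutation p = 0.1 for both). In CPM as counted the differences were -10.1 points for Egln3, 15.6 for Egln1 and -5.55 for Egln2 (exact permutation p = 0.1 for each). Hif3a made up at most 0.126% of the alpha subunit TPM in any library.

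**Figure D4:**
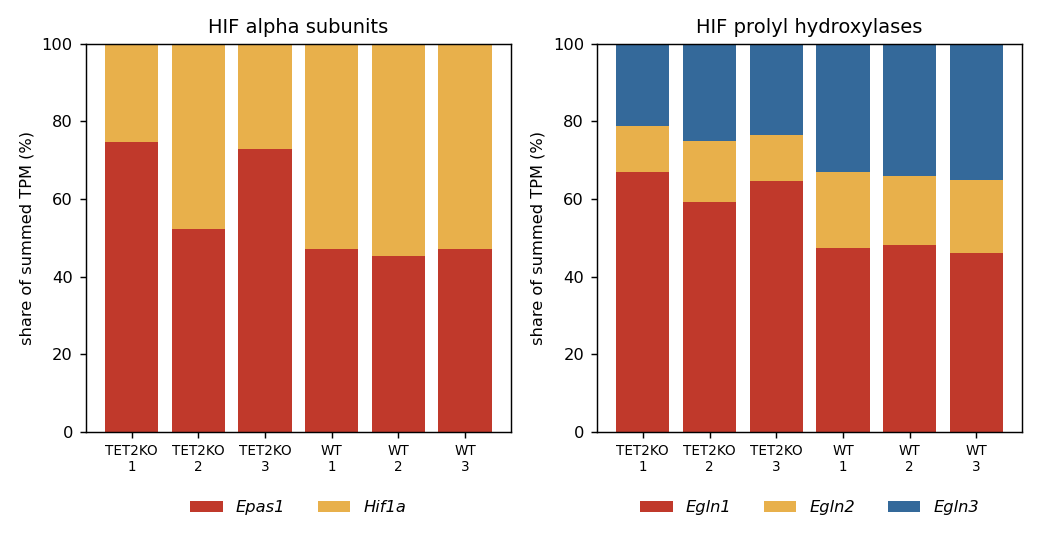
Share of summed TPM taken by each gene within the alpha subunits (left, without Hif3a) and the prolyl hydroxylases (right), 1 bar per library, TET2KO before WT. Epas1 takes 52.2 to 74.8% in TET2KO and 45.4 to 47.1% in WT.

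Partners of HIF were described next. These were chosen with earlier results of the data known, as were the lists below. Of 15 tested partners, 4 were higher and 7 lower in the libraries labelled TET2KO. This passing share of 73.3% stands beside 62.9% of all genes (33.4% higher, 29.4% lower). The lower ones included other parts of the ligase that holds Vhl. Eloc, an elongin, averaged 77.9 ± 33.9 CPM under the TET2KO label and 223 ± 9.96 CPM under the WT label (log2 -1.51 ± 0.30, trend-removed -0.51 ± 0.12). Rbx1, the ring subunit, averaged 78.1 ± 29.0 and 209 ± 18.1 CPM under the TET2KO and WT labels (-1.42 ± 0.28, trend-removed -0.67 ± 0.13). Both passed in either fit. Elob, the other elongin, passed as counted but not with the trend removed (-1.23 ± 0.23, trend-removed 0.0039 ± 0.10). Rack1, a scaffold that promotes oxygen-independent loss of the alpha subunit, was at -1.64 ± 0.33 (trend-removed -0.93 ± 0.18). In the trend-removed fit 1 partner was higher and 5 lower, beside 21.9% and 24.3% of all genes. Eloc, Rbx1, Elob and Rack1 also passed as lower when scaled by library totals.

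The higher partners passed as counted and when scaled by library totals, but not with the length and GC trend removed. Crebbp and Ep300, which encode the co-activators CBP and p300 that FIH keeps away, were at 1.95 ± 0.50 and 2.14 ± 0.58 on the log2 scale, with trend-removed values of -0.09 and 0.15. Usp20, a deubiquitinase, was at 1.46 ± 0.26, and Siah2, a ubiquitin ligase, at 0.57 ± 0.22. Neither passed with the trend removed, at -0.25 and -0.10. Arnt2 was not tested, with 13 and 2 reads under the TET2KO and WT labels.

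Glycolytic targets of HIF that passed were mostly higher as counted, a direction that was lost with a trend on merged exon length and GC. Of 17, 9 were higher, 2 lower and 6 did not pass in the libraries labelled TET2KO. The 64.7% that passed is near the 62.9% of all genes (33.4% higher, 29.4% lower), with a median log2 fold change of 0.56 against 0.046 for all genes. Hk1 and Hk2, the hexokinases, rose by 2.51 ± 0.37 and 1.98 ± 0.42, and Pfkl, a phosphofructokinase subunit, by 1.90 ± 0.31 on the log2 scale. Pfkfb3, which makes an activator of phosphofructokinase, averaged 4.27 ± 1.77 CPM under the TET2KO label and 0.891 ± 0.216 CPM under the WT label (2.25 ± 0.41). Trend-removed values of Hk1, Hk2, Pfkl and Pfkfb3 were 0.88, 0.53, 0.43 and 1.29, each past the test. Pgk1 and Ldha, which encode late enzymes of the path, fell by 0.78 and 0.63 on the log2 scale as counted. Neither passed with the trend removed, at -0.23 and -0.16. In the trend-removed fit 8 were higher and 2 lower, beside 21.9% and 24.3% of all genes, of which 7 higher and 0 lower were genes that passed the same way as counted. The count of 11 that passed fell to 6 without WT replicate 1, all higher, beside 42.9% of all genes in that fit (23.3% higher, 19.6% lower). It was also 6, all higher, without WT replicate 3, beside 41.2% of all genes (22.6% higher, 18.6% lower). With merged exon length and GC, 3 were higher and 4 lower and the median was 0.00083, beside 50.4% of all genes (24.0% higher, 26.4% lower). Scaling by library totals gave 11 higher and 0 lower, beside 45.5% and 15.8% of all genes, and Pgk1 and Ldha then did not pass.

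Other HIF targets moved in both directions. Of 34 tested, 13 were higher, 7 lower and 14 did not pass in the libraries labelled TET2KO. The 58.8% that passed is near the 62.9% of all genes (33.4% higher, 29.4% lower). Nos2, the inducible nitric oxide synthase, averaged 8.59 ± 4.51 CPM under the TET2KO label and 0.896 ± 0.244 CPM under the WT label (log2 3.24 ± 0.47, trend-removed 2.00 ± 0.28). Bhlhe40, a transcriptional repressor, rose by 1.85 ± 0.27 with nearly the same trend-removed value (1.69 ± 0.23). Pdgfb, a growth factor of vessel walls, rose by 2.18 ± 0.31 (trend-removed 0.82 ± 0.13). Kdm4b, a histone demethylase, was at 1.99 ± 0.34 as counted and 0.046 ± 0.15 with the trend removed. All 4 passed as counted, and all but Kdm4b passed with the trend removed.

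The targets that fell include genes of mitochondria. Bnip3, which marks mitochondria for autophagy, averaged 262 ± 140 CPM under the TET2KO label and 931 ± 147 CPM under the WT label (log2 -1.83 ± 0.39, trend-removed -0.89 ± 0.20). Higd1a, a factor of the respiratory chain, was at -1.35 ± 0.25 (trend-removed -1.17 ± 0.18), and Fam162a, a mitochondrial protein, at -1.58 ± 0.29 (trend-removed -0.33 ± 0.10). Cxcr4, a chemokine receptor, was at -1.48 ± 0.28 (trend-removed -0.74 ± 0.16). All 4 passed in both fits and when scaled by library totals. In the trend-removed fit 12 of the 34 targets were higher and 8 lower, beside 21.9% and 24.3% of all genes. Of these, 8 higher and 6 lower were genes that passed the same way as counted.

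Vegfa, the angiogenic factor, was chosen after its values were seen. It rose 0.91 ± 0.21 on the log2 scale (trend-removed 0.47 ± 0.14, edgeR adjusted p = 0.020). Epo, the kidney hormone of red cell formation, had 2 reads under the TET2KO label and 0 under the WT label, and Car9 had 51 and 13, and neither was tested. Erythroid markers moved with the genotype labels beside these targets: all 5 were lower, beside 29.4% of all genes, with sums of 165 to 741 CPM under the TET2KO label and 1554 to 7037 CPM under the WT label. Their part in the target values was not tested.

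**Figure D5:**
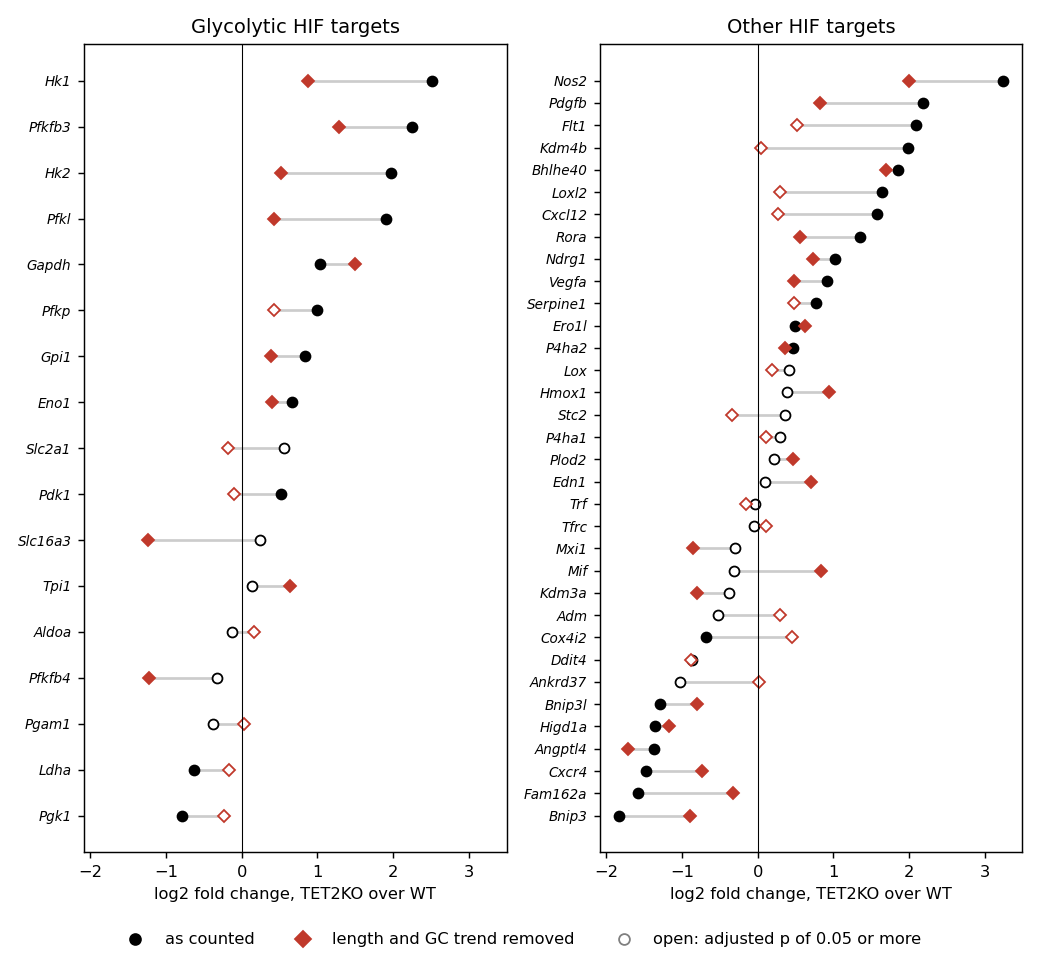
Log2 fold change of TET2KO over WT of each tested HIF target, glycolytic on the left and other on the right, as counted (circles) and with the length and GC trend removed (diamonds), open where the adjusted p is 0.05 or more. Genes higher and lower under the TET2KO label stand in both panels.

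The genes whose pattern over the 6 libraries was most like that of an alpha subunit were found among 10686 genes, by the root-mean-square difference of centred log2 CPM. For Epas1 these were Hk2 (difference 0.047 on the log2 scale) and Pard3b (0.060). For Hif1a they were Rif1 (0.024) and Col4a5 (0.036). The log2 CPM compared was as counted, with the length trend left in. The longest transcript has 5516 nt in Epas1, 5513 nt in Hk2 and 8392 nt in Pard3b. Replicate 2 of TET2KO was the TET2KO library nearest to the WT mean in 94.9% of the genes that passed. Whether genes of like pattern are regulated together was not tested. Hif3a was below the filter and was not compared.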

How the data were processed

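Values were deposited by the authors for each library, read counts of Ensembl genes and TPM. Their comparison table holds log2 fold changes, p-values and adjusted p-values, and a normalised signal that equals the deposited counts divided by 1 size factor per library. Per the submitters' processing notes, the tools were STAR 2.5.2b, Trimmomatic 0.36, Subread 1.5.2 with featureCounts, and DESeq2, on GRCm38 (mm10). Neither annotation nor strand setting was stated in the sources at hand. Libraries were matched by library name, with 0 columns of per-sample values unmatched.

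Counts were tested in edgeR 4.0.16 (R 4.3.3) by robust quasi-likelihood F-tests with TMM and filterByExpr. The model held group alone, and p-values were adjusted by Benjamini-Hochberg with a threshold of 0.05. SEs were worked back from F. Alternatives used DESeq2 1.42.0, limma 3.58.1 on voom or log2(TPM + 1), other scalings, no filter, a replicate block, left-out libraries and smooth trends (mgcv 1.9.3, basis size 6 per axis). The trend was fitted in each library to log2 CPM with a prior count of 2, on length and GC from GENCODE M21 (GRCm38), and entered as offsets. Fits were run on simulated data with no trend or with a trend on length alone, equal in every TET2KO library. Those data held no GC trend and no library apart from its group, so they do not cover these features. Shares were compared with exact permutation tests. A sign change counts as a reversal where a value passed in either fit, and for shares always. The edgeR p-values weigh the difference of the groups against the spread between the libraries within them. The fitted trend entered as fixed, so its own uncertainty is not in the trend-removed p-values.

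Members and lists were chosen with earlier results of these data known. Named genes are the members, Tet2, up to 4 per direction with the smallest p from each list, every gene of a list with 5 or fewer passing, and the 2 most like Hif1a, Epas1 and Hif3a. Likeness was computed over genes that have a symbol and average 1 or more in log2 CPM. Same-numbered samples did not deviate together (correlations of 0.039, -0.23 and -0.013), so the numbers were not taken to pair them.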

Additional observations from a re-analysis of the deposited data

How the results depend on the processing

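Each of the 24 alternatives was run for the 8 tested members, the lists, Tet2 and the count over all genes, and 1 of them, the absence of a filter, gave a value for Hif3a. Hif1an kept its direction and passed in all 24, and Vhl in 23. With the length and GC trend removed, Egln1 turned to -0.24 (log2), and to -0.26 with a replicate block added. On leaving out 1 library in that fit it was -0.10, -0.39 and -0.23 without TET2KO replicates 1, 2 and 3, and -0.28, -0.23 and -0.23 without WT replicates 1, 2 and 3. Hif1a turned to -0.094 with a trend on the implied length and to -0.24 with one on the longest transcript alone, an alternative added after seeing the data, as was merged exon length with GC. Egln2 turned to 0.40 with library totals and 0.59 on log2(TPM + 1), a scale where Egln3 turned to 0.57. Beyond these, 10 alternatives lost the call of Hif1a (0.42 to 0.61), 8 that of Arnt (0.11 to 0.46), 7 that of Epas1 (0.29 to 0.50) and 1 that of Egln1 (0.34, merged exon length and GC), while 8 gave Egln2 a call as lower (-1.01 to -0.59). The causes were not tested.

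Of the members, 6 passed as counted. On leaving out 1 library with the trend removed, 2 to 7 passed. Over all genes 9037 passed as counted, 7618 with the replicate block, and 5713 with trend removal and the block. On leaving out 1 library as counted, 6133 to 11178 of all genes passed, so counts of the lists move along with the whole. With the trend removed, 4868, 8653 and 4027 passed without TET2KO replicates 1, 2 and 3, and 4206, 4883 and 4245 without WT replicates 1, 2 and 3. Glycolytic targets numbered 11 as counted, 7 with trend removal and the block, 7 with merged exon length and GC (3 higher, 4 lower, against 9 and 2 as counted), 6 to 13 on leaving out 1 library, and 5 to 12 on doing so with the trend removed. Partners numbered 11 as counted, 6 with the trend removed, 5 with the block added, and on leaving out 1 library with the trend removed 6, 8 and 3 (TET2KO 1 to 3) and 4, 6 and 4 (WT 1 to 3). Other targets numbered 20 as counted and 13 to 25 on leaving out 1 library with the trend removed. Tet2 did not pass with the trend removed (0.27), with the block added (0.27), with the implied length (0.35), the longest transcript alone (0.17) or merged exon length and GC (0.38), or with the trend removed and 1 library left out (0.29, 0.18 and 0.36 without TET2KO 1 to 3, and 0.34, 0.31 and 0.20 without WT 1 to 3).

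With the trend removed, in CPM, the share of Epas1 turned to -3.04 points and that of Egln3 to 3.12 points. No such value exists for Hif3a, which was below the filter. The Hif3a share differed by 0.022 points, and by -0.0042 to 0.055 on leaving out 1 library. Same-numbered libraries did not deviate together. With the replicate block the call of Hif1a was lost (0.51, adjusted p = 0.077) and that of the 5 other members was kept. The 3 libraries a group set the precision, the longest and shortest transcripts carry the widest shifts, and Hif3a, Epo and Arnt2 had too few reads to compare.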

Other observations

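Further oxygen-dependent dioxygenases outside the HIF family were compared. Ado, a thiol dioxygenase that senses oxygen through N-terminal cysteines, averaged 17.5 ± 3.80 CPM in the libraries labelled TET2KO and 8.55 ± 0.380 CPM in those labelled WT (log2 1.03 ± 0.21, edgeR adjusted p = 0.0067). Ado also passed with the trend removed, at 0.42 ± 0.14. Kdm5a, a histone demethylase, was at 0.94 ± 0.26 as counted, past the test, and at -0.14 ± 0.15 with the trend removed. Kdm6a, a demethylase of another histone mark, was at 0.48 ± 0.27 and P4htm, a membrane prolyl hydroxylase, at 0.0065 ± 0.20, and neither passed.

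The counts of markers of other cell types are set beside all genes, of which 62.9% passed as counted and 46.2% with the trend removed. Mural markers had 4 higher and 2 lower of 8, fibroblast markers 3 higher and 4 lower of 8, and macrophage markers 3 higher and 2 lower of 8. With the trend removed these counts were 3 and 3, 1 and 1, and 1 and 2. As counted, 75% of mural, 87.5% of fibroblast and 62.5% of macrophage markers passed, and with the trend removed 75%, 25% and 37.5%. Cardiomyocyte markers had 4 higher and 5 lower of 10 as counted, and 5 higher and 3 lower with the trend removed. Of the lymphocyte, adipocyte, atrial and epicardial markers, 2, 1, 2 and 1 were tested, with 0, 0, 0 and 1 higher and 1, 0, 2 and 0 lower. The epicardial gene tested was Wt1. Upk3b, on the same list, had 1, 0 and 0 reads under the TET2KO label and 145, 36 and 0 under the WT label. Msln, also epicardial, had 1, 0 and 0 reads under the TET2KO label and 119, 19 and 0 under the WT label. Neither was tested.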
